A study of Mus musculus with 6 samples.

Results

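The genes described here encode the subunits of the proteasome and were chosen by symbol. They are the protein-coding genes of the GENCODE M21 annotation whose symbol starts with *Psma*, *Psmb*, *Psmc*, *Psmd* or *Psme* followed by a digit, which gave 45 of 21911 protein-coding genes. FOXC2 binding at these genes was read from ChIP-seq of mouse podocytes, the epithelial cells that wrap the glomerular capillaries. FOXC2 is a forkhead transcription factor (TF) of podocytes. The ADR group were adult mice given adriamycin (ADR, doxorubicin), a podocyte toxin, at 18 mg/kg by retro-orbital injection on days 0 and 7. The PBS group were littermates of the same genotype given PBS. Both groups carry a Cre active in podocytes and the mTmG fluorescent reporter, which served to sort podocytes by FACS on day 9, and both are of mixed genetic background. There were 3 samples per condition, precipitated with the antibody that the labels name as Abcam b5060. The comparison asks where FOXC2 sits at these genes after injury and in controls.

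The authors pooled the samples of each condition before deposit, so that each condition has 1 list of peaks, with 40067 ADR and 41075 PBS peaks on GRCm38. No spread between samples and no test between ADR and PBS can be given. Differences are therefore described beside the same measure over all protein-coding genes. The read depth is not in the lists, and intervals on shares (Wilson, 95%) cover counting error only. Each peak has a summit and a fold enrichment, the signal at the summit over the local control, which is a level of binding within a list. As a check of the cell type, the start regions of *Nphs1*, *Podxl* and *Wt1* each had a peak in both lists, with folds of 19.02 to 30.1 in ADR and 7.30 to 14.7 in PBS. Over genes with a start peak in both lists, the median log2 ratio of the folds (ADR over PBS) was -0.05.

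The proteasome degrades proteins that carry ubiquitin chains. Its 20S core is a barrel with outer rings of alpha subunits (*Psma*), which form the gate, and inner rings of beta subunits (*Psmb*), some of which cut proteins. The 19S cap (*Psmc* and *Psmd*) binds ubiquitin, removes it and threads the unfolded protein into the core by ATP hydrolysis. Other activators (*Psme*) open the gate without ubiquitin, and cells exposed to interferon exchange catalytic beta subunits for those of the immunoproteasome, which shapes peptides for antigen presentation. Proteasome genes are transcribed in nearly every cell from promoters that hold NF-Y, ETS and SP sites, and NFE2L1 raises their transcription together when proteasomes are inhibited. In podocytes the ubiquitin and proteasome system is studied for its part in turnover of cytoskeletal and slit diaphragm proteins.

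The DNA at or near 5 of the peaks is shown first. These carried the highest start fold in ADR, the largest differences between the lists and the strongest distal site. The *Psma4* promoter, with the highest start fold in PBS, is not printed. Each stretch is 150 bases of GRCm38, printed 5′ to 3′ on the strand of the gene, and lies outside all annotated exons. The promoters are the bases upstream of the gene and end 1 base before its annotated start, so they can reach past the called peak. Matches named here are those in the printed bases, and the longer promoters counted further on can hold more. Capitals mark exact matches to the motifs that were searched, which are spelled out with the motif counts further on. Each motif was searched only in the letters given there, so other spellings, of forkhead sites for example, are not marked. The *Psme2* promoter (chr14:55591114-55591263, minus strand) had the highest start fold in the ADR list and holds 1 SP/KLF match. The summit of its ADR peak lies 34 bp inside the gene and is not in the stretch.
*Psme2* promoter: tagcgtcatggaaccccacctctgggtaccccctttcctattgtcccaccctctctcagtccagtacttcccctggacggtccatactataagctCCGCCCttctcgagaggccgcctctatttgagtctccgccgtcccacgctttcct
The *Psmd11* promoter (chr11:80428465-80428614, plus strand) had the largest ratio of ADR to PBS fold and holds an SP/KLF match followed by an ETS match.
*Psmd11* promoter: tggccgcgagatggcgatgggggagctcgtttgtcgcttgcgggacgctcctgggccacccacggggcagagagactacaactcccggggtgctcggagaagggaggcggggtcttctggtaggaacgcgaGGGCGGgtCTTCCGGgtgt
The *Psmb6* promoter (chr11:70525217-70525366, plus strand) had the smallest such ratio and holds 1 match to the antioxidant response element (ARE) bound by NFE2L1 and NFE2L2.
*Psmb6* promoter: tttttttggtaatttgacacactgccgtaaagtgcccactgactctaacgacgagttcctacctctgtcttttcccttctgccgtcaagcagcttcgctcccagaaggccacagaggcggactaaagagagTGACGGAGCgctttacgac
The *Psmd6* promoter (chr14:14120985-14121134, minus strand) had the highest fold of the start peaks called only in PBS and holds 1 SP/KLF match.
*Psmd6* promoter: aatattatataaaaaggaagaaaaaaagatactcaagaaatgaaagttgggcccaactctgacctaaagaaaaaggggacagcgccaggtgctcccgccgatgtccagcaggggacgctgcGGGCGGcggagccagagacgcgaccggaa
The distal site upstream of *Psmb7* (chr2:38647781-38647930, minus strand, intergenic) had the highest fold of all peaks near these genes in both lists. It holds an AP-1 match and a WT1/EGR match in the 150 bases around its ADR summit.
*Psmb7* distal site: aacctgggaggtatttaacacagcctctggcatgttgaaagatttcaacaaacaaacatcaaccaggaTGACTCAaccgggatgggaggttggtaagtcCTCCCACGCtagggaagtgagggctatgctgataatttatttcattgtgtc

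FOXC2 peaks lay near most proteasome genes. An ADR peak was present less than 10 kb from the start of 36 of the 45 genes (80.0%, 66.2 to 89.1%), beside 55.9% of all protein-coding genes. A PBS peak was present at 41 (91.1%, 79.3 to 96.5%), beside 58.8% of all. Summed over the genes there were 53 ADR and 68 PBS peaks, which are 50 and 64 different peaks since neighboring genes can share one. *Psma6*, *Psma8*, *Psmd10* and *Psme2b* had none in this window in either list. *Psma6* has a peak at another of its annotated transcript starts, with a fold of 7.74 in ADR and 5.99 in PBS. The other 3 are the testis alpha subunit gene *Psma8*, the gankyrin gene *Psmd10* and *Psme2b*, a mouse paralog of *Psme2*.

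**Figure D1:**
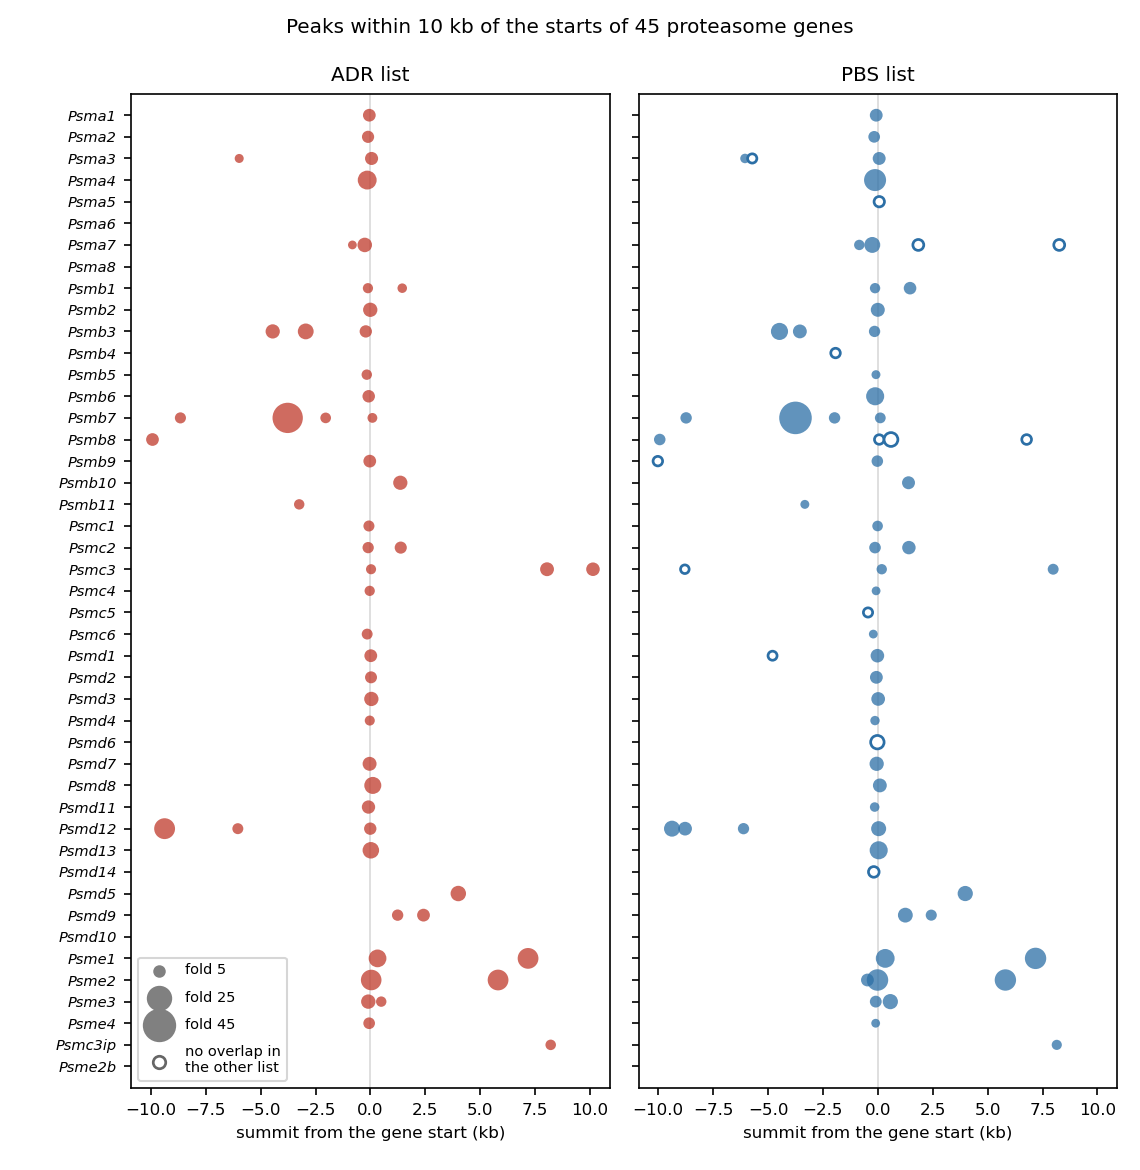
Position of each peak summit (horizontal axis, kb from the gene start, upstream to the left) for the 45 genes (rows, ordered by role), in the ADR list (left) and the PBS list (right). Circle area grows with fold enrichment, and open circles are peaks with no overlap in the other list. All 50 different ADR peaks overlap a PBS peak, 13 of the 64 PBS peaks are open, and the circles are densest at the start.

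Every ADR peak near these genes overlapped a PBS peak by at least 1 bp. None of the 50 ADR peaks lacked an overlapping PBS peak (0%, upper limit 7.13%), while 18.4% of the ADR peaks within 10 kb of any coding gene and 32.3% of the whole ADR list did. The share depends on the place of the summit, and more of the proteasome peaks lay at starts. With the summit at a coding gene start it was 0 of 34 (upper limit 10.2%), beside 6.73% of 8385 near all coding genes. Away from such starts it was 0 of 16 (upper limit 19.4%), beside 29.5% of 8741. Of the 64 PBS peaks, 13 had no ADR overlap (20.3%, 12.3 to 31.7%), beside 25.2% near all coding genes and 33.1% of the whole PBS list. At ribosomal protein genes, another set expressed in all cells, 19 of 157 ADR peaks and 27 of 172 PBS peaks were called in 1 list only. At mitochondrial respiratory chain genes these counts were 16 of 139 and 20 of 148. Both sets therefore held ADR peaks without a PBS partner, unlike the proteasome genes, and no test of that difference was made. At coding gene starts these were 6 of 108 ADR peaks (5.56%, ribosomal) and 4 of 90 (4.44%, respiratory chain). Both shares lie below the proteasome upper limit of 10.2%. Away from starts they were 13 of 49 (26.5%) and 12 of 49 (24.5%), above the limit of 19.4%.

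Counted by gene, 0 of the 45 had more ADR than PBS peaks (upper limit 7.87%), beside 10.8% of all coding genes. Fewer ADR than PBS peaks were found at 12 (26.7%, 16.0 to 41.0%), beside 18.7% of all, and 29 had equal numbers. Over the genes with a peak in either list, fewer ADR peaks were found at 29.3% of the proteasome genes and 30.3% of coding genes. Of those coding genes, 17.6% had more ADR than PBS peaks. The 12 proteasome genes with fewer were *Psma3*, *Psma5*, *Psma7*, *Psmb4*, *Psmb8*, *Psmb9*, *Psmc5*, *Psmd1*, *Psmd6*, *Psmd12*, *Psmd14* and *Psme2*. At 10 of them a PBS peak had no ADR overlap. At *Psmd12* and *Psme2* every PBS peak overlapped an ADR peak, and 1 wide ADR peak spanned a pair of PBS peaks. *Psmc3* had 3 peaks in each list, but its weakest PBS peak (fold 3.43) was called in PBS only. The PBS partner of its ADR peak of fold 8.46 had a fold of 6.96. It lay just past the 10 kb edge and was not counted.

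The count of 0 depends on the threshold. With only peaks of −log10 q of at least 5 in both lists, 6 genes had more ADR than PBS peaks (13.3%, all coding genes 10.8%) and 9 had fewer (all 16.3%). The 6 were *Psmb5*, *Psmb11*, *Psmc3*, *Psmc4*, *Psmc6* and *Psme4*, where weak PBS peaks fell below the threshold. At *Psmc3* the PBS partner past the 10 kb edge was also not counted. With peaks of fold of at least 5, 7 genes had more (15.6%, all 12.3%) and 8 had fewer (17.8%, all 14.8%). Within 50 kb of the start, 7 genes had more (15.6%, all 20.9%) and 20 had fewer (44.4%, all 33.9%). The absence of ADR-only peaks also depends on the overlap of at least 1 bp that counted as shared. With an overlap of at least 50% of both peaks 5 intervals were ADR only, and with summits within 200 bp 1 was. The shares over all intervals were not computed under these rules, so whether these counts are low cannot be said.

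**Figure D2:**
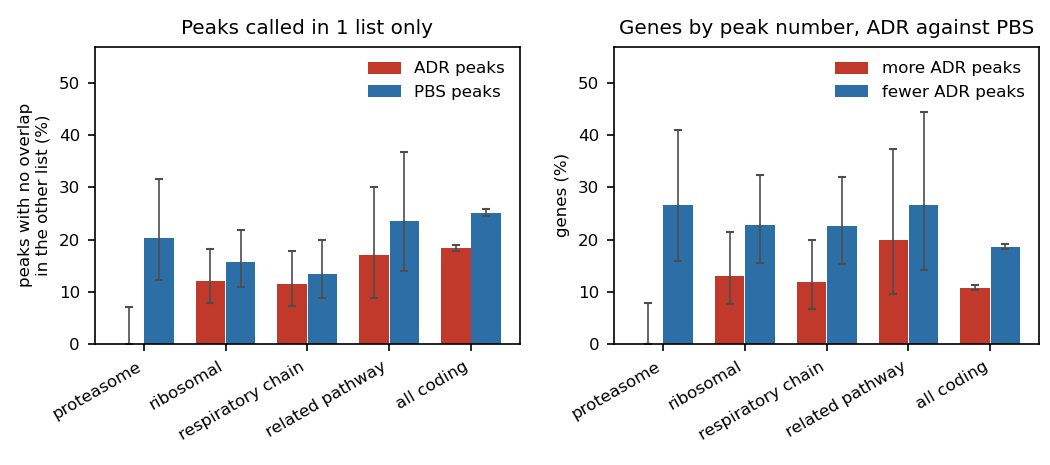
Left, share of the different peaks within 10 kb that had no overlap in the other list, for ADR peaks (red) and PBS peaks (blue). Right, share of genes with more ADR than PBS peaks (red) or fewer (blue). Groups of bars are the 45 proteasome, 92 ribosomal protein, 93 respiratory chain and 30 related pathway genes and all 21911 coding genes, and lines are 95% Wilson intervals. The proteasome genes have 0% in both red bars, against 18.4% and 10.8% for all coding genes.

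Binding was centered on the starts. A start peak, meaning a summit within 500 bp of the start of the gene record, was present in ADR at 30 of the 45 genes (66.7%, 52.1 to 78.6%; all coding genes 40.8%) and in PBS at 35 (77.8%, 63.7 to 87.5%; all 43.5%). All 30 genes with an ADR start peak also had one in PBS, beside 93.1% of the coding genes with an ADR start peak. Start peaks in both lists were thus present at 66.7% of the proteasome genes and 38.0% of all coding genes. No gene had an ADR-only start peak (all 2.80%) and 5 had a PBS-only start peak (11.1%, 4.84 to 23.5%; all 5.55%). Of the genes with a PBS start peak, 14.3% of the proteasome genes and 12.8% of all coding genes had it in PBS only, which are close. The 5 were *Psma5*, *Psmb8*, *Psmc5*, *Psmd6* and *Psmd14*, with PBS folds of 4.98, 4.20, 3.94, 8.33 and 5.23. The absence of ADR-only starts depends on the threshold. With only peaks of −log10 q of at least 5, 4 of the 45 genes had one, beside 720 of 21911 coding genes. With a fold of at least 5 it was also 4, beside 990 of all coding genes. Under these limits 28 and 25 of the 45 genes had an ADR start peak at all, beside 7937 and 7434 coding genes.

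**Figure D3:**
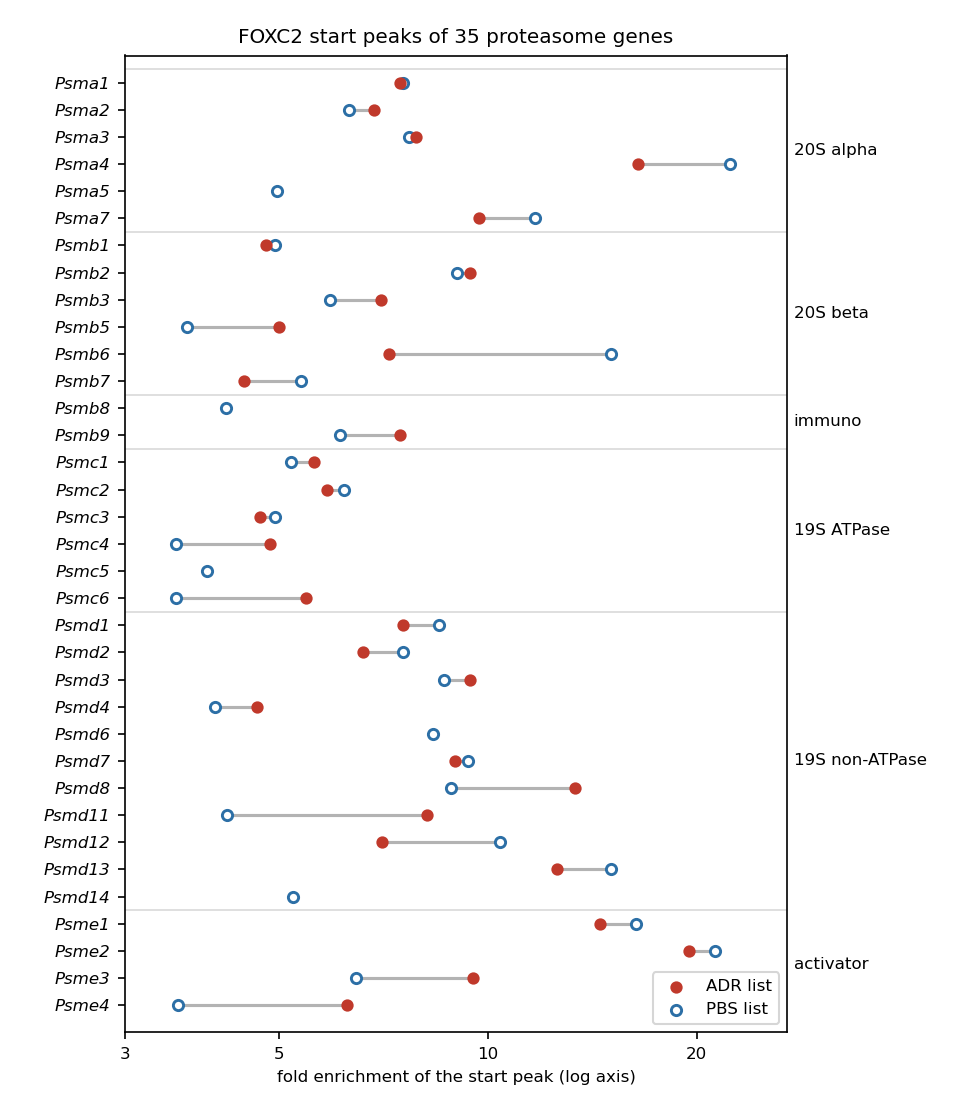
Fold enrichment of the start peak (log axis) of the 35 genes that had one, in the ADR list (filled red) and the PBS list (open blue), joined by a gray line where both have one. Genes are grouped by role. The 5 genes with an open circle alone had no ADR start peak, and *Psmb6* (7.20 in ADR, 15.0 in PBS) and *Psmd11* (8.17 in ADR, 4.21 in PBS) have the longest lines.

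Of the 8 alpha ring genes, 5 had start peaks in both lists, and at *Psma1*, *Psma2* and *Psma3* the folds were nearly equal. *Psma1* had a fold of 7.47 in ADR and 7.56 in PBS, *Psma2* had 6.85 in ADR and 6.31 in PBS, and *Psma3* had 7.88 in ADR and 7.71 in PBS. The *Psma2* summits lay 34 bp in ADR and 46 bp in PBS from a start of *Mrpl32*, nearer than to that of *Psma2*. That peak cannot be assigned to either gene alone. *Psma4* carried the strongest start peak of the ring and of the whole PBS set, with a fold of 16.4 in ADR and 22.3 in PBS (log2 ratio -0.44), at chr9:54950460-54950987 in ADR. Its start faces that of *AY074887* within 1 kb, so the peak cannot be assigned to either gene alone. *Psma7*, which shares its start region with *Ss18l1*, had a start fold of 9.72 in ADR and 11.7 in PBS (log2 ratio -0.27). It also had 4 PBS peaks against 2 ADR peaks, and the pair called in PBS only, one of them within 500 bp of another *Psma7* transcript start and the other in an intron of *Lsm14b*, both had a fold of 5.49. *Psma5* had a PBS peak alone.

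The beta ring held both the start with the lowest ratio of ADR to PBS fold and the strongest distal site. *Psmb6*, the caspase-like catalytic subunit, had a start fold of 7.20 in ADR and 15.0 in PBS (log2 ratio -1.06), with summits 79 and 123 bp upstream of the start. It was the only proteasome gene with a start fold at least 1.5 times lower in ADR, 1 of 30 (3.33%, 0.59 to 16.7%). Over all coding genes the share was 15.3%, which lies inside that interval. *Psmb5*, the chymotrypsin-like subunit, had 5.01 in ADR and 3.69 in PBS (log2 ratio 0.44). *Psmb7*, the trypsin-like subunit, had a weak start peak of 4.46 in ADR and 5.38 in PBS (-0.27). The peak 3769 bp upstream of it had a fold of 42.3 in ADR (chr2:38647432-38648266) and 48.9 in PBS (chr2:38647428-38648162), rank 235 of the ADR list and 203 of the PBS list. It was flanked by weaker peaks at 2039 and 8654 bp upstream in ADR and at 1971 and 8732 bp in PBS, with folds of 5.23 and 5.69 in ADR and 6.01 at both in PBS. No other coding start lay nearer to the summit, the next being that of *Nr5a1* at 63332 bp.

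The structural beta subunits differed less. *Psmb1*, which shares its start region with *Tbp*, had 4.79 in ADR and 4.94 in PBS. A further peak near another *Psmb1* transcript start was stronger in PBS, with a fold of 4.19 in ADR and 7.30 in PBS. *Psmb2* had 9.44 in ADR and 9.02 in PBS, and *Psmb3* had 7.01 in ADR and 5.92 in PBS. *Psmb4* had no start peak and a single PBS peak of fold 4.20, 1927 bp upstream.

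Among the immunoproteasome genes, the cluster on chromosome 17 differed most in its number of peaks. *Psmb9*, which replaces *Psmb6*, shares its start with *Tap1*, a transporter of antigenic peptides, and the peak there had a fold of 7.47 in ADR and 6.12 in PBS. *Psmb8*, which replaces *Psmb5*, had 1 ADR peak within 10 kb, that same *Psmb9* and *Tap1* peak, and 4 PBS peaks. The 3 called in PBS only lay at its start (fold 4.20), at another of its transcript starts (chr17:34198049-34198458, fold 8.85, the highest of the 13 PBS-only peaks) and at the start of *Tap2* (fold 4.36). *Psmb10*, which replaces *Psmb7*, had its peak at another transcript start, with 9.36 in ADR and 7.73 in PBS. *Psmb11*, the thymus beta subunit, had no start peak, and its window held the *Psmb5* start peak.

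The ATPase genes of the 19S base had low start folds in both lists. Of the 5 with a start peak in both, 3 had a higher and 2 a lower fold in ADR. *Psmc6* had 5.47 in ADR and 3.56 in PBS (log2 ratio 0.62), and *Psmc4* had 4.85 in ADR and 3.56 in PBS (0.45). *Psmc1*, *Psmc2* and *Psmc3* had folds of 4.70 to 5.87 in ADR and 4.94 to 6.20 in PBS, with log2 ratios of -0.08 to 0.11. Those 3 differed little between the lists. The *Psmc2* summits lay 5 bp in ADR and 0 bp in PBS from a start of *Dnajc2*. That start peak cannot be assigned to either gene alone. *Psmc5* had only a PBS peak, of fold 3.94, whose summit lay 448 bp upstream in the region it shares with *Ftsj3*. Within *Psmc2* and at the 3′ side of *Psmc3*, further peaks were called in both lists, with folds of 6.78 and 8.84 in ADR and 8.33 and 5.49 in PBS. Both summits fell in annotated exons.

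The other 19S subunits held the start with the highest ratio. *Psmd11*, a scaffold subunit of the lid, had a start fold of 8.17 in ADR (chr11:80428296-80428681) and 4.21 in PBS (chr11:80428330-80428764), a log2 ratio of 0.96. *Psmd8*, another lid subunit, had 13.4 in ADR and 8.85 in PBS (0.59). Both were at least 1.5 times higher in ADR, as were *Psmc6* and *Psme4*, together 4 of 30 genes (13.3%, 5.31 to 29.7%), beside 11.0% of all coding genes. In the other direction *Psmd12* had 7.03 in ADR and 10.4 in PBS (-0.56), and *Psmd13*, whose start faces *Sirt3*, had 12.6 in ADR and 15.1 in PBS (-0.26). The window of *Psmd12* also reached peaks of *Pitpnc1*, of which the strongest had a fold of 20.05 in ADR and 11.78 in PBS.

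The lid deubiquitinase gene *Psmd14* and the lid subunit gene *Psmd6* had start peaks in PBS only. The *Psmd6* peak (chr14:14120889-14121106, −log10 q of 15.4) was not a marginal call, whereas the *Psmc5* peak (−log10 q of 2.65) was near the lowest value of the PBS list, 1.34. *Psmd1*, a large base subunit, had a start fold of 7.55 in ADR and 8.49 in PBS, and a PBS-only peak of fold 3.77 that lay 4796 bp upstream. *Psmd2*, *Psmd3*, *Psmd4* (a ubiquitin receptor) and *Psmd7* had folds of 4.65 to 9.43 in ADR and 4.04 to 9.36 in PBS, with log2 ratios of -0.19 to 0.20. The assembly chaperone genes had no peak at the start of the gene record. *Psmd5* had its peak at another of its transcript starts, with 11.0 in ADR and 10.7 in PBS. *Psmd9* had a pair of peaks within the gene, with folds of 5.95 and 7.54 in ADR and 10.1 and 5.67 in PBS.

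The activator genes spanned both ends of the range of start folds. *Psme2*, which forms the interferon-inducible PA28 activator with *Psme1*, had 19.5 in ADR, the highest start fold of the 45 in that list, and 21.3 in PBS, second to *Psma4*. *Psme1* had 14.5 in ADR and 16.3 in PBS. Both genes lie within reach of a further strong peak at the start of *Emc9*, with 19.87 in ADR and 21.03 in PBS. At *Psme2* the single ADR peak (chr14:55590798-55591876) covered a pair of PBS peaks, the weaker with a fold of 7.56. The summit of that weaker peak lay 120 bp from a start of *Rnf31* and 475 bp from that of *Psme2*. *Psme4*, the nuclear activator PA200, had 6.26 in ADR and 3.57 in PBS (log2 ratio 0.81). *Psme3*, the nuclear PA28 gamma, had 9.52 in ADR and 6.46 in PBS (0.56) at its start. Its other peak, 491 bp into the gene in ADR and 568 bp in PBS, went the other way, with 5.01 in ADR and 10.6 in PBS. With both peaks counted as start peaks the highest folds would be 9.52 in ADR and 10.6 in PBS. *Psmc3ip*, a meiotic recombination factor caught by the rule on symbols, had no start peak.

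Across the 30 genes with start peaks in both lists, folds were as often higher as lower in ADR, 15 in each direction. The median log2 ratio was 0.01 (binomial interval -0.12 to 0.20), beside -0.05 over 8316 coding genes. Over all genes with a start peak in the given list, the median start fold was 7.33 in ADR (30 genes) and 6.31 in PBS (35 genes). The PBS median thus includes the genes with a PBS-only start peak. For all coding genes it was 7.88 in ADR (8930 genes) and 7.77 in PBS (9533 genes). Log2 folds in ADR and PBS correlated across the 30 genes with a Pearson r of 0.84, and across all coding genes with 0.78. This describes genes within 1 pair of pooled lists, which are not independent replicates. The SD of the log2 ratio was 0.42 over the proteasome genes and 0.54 over all coding genes.

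**Figure D4:**
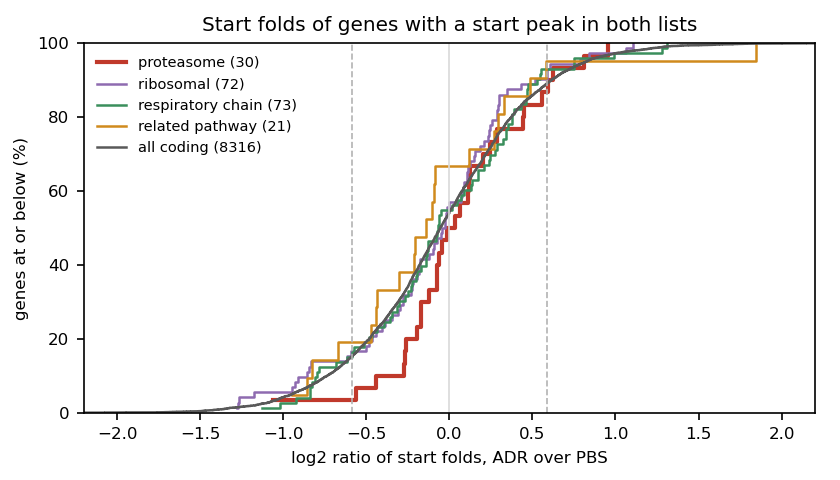
Cumulative share of genes (vertical axis, %) by the log2 ratio of start folds, ADR over PBS (horizontal axis), for genes with a start peak in both lists, with the number of genes in brackets. Dashed lines mark a ratio of 1.5 in either direction. The proteasome genes (red) cross 0 with 15 of 30 genes on each side, and 1 gene lies left of the lower dashed line and 4 right of the upper.

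The start peaks were also grouped by fold. The fold that sets the group is part of the ratio, so that weak peaks of either list tend to a ratio in favor of the other list, and the values are a description. Of 11 genes with a PBS start fold under 5, 3 had no ADR start peak and the others had a median log2 ratio of 0.44. Of 17 with a PBS fold of 5 to 10, 2 had none and the median was 0.07, and of 7 with a PBS fold of 10 or more all had an ADR start peak and the median was -0.27. Over all coding genes the shares without an ADR start peak in these classes were 35.9%, 11.7% and 1.88%, and the medians were 0.33, -0.03 and -0.22. Grouped by ADR fold, the 5, 20 and 5 proteasome genes in these classes all had a PBS start peak, with medians of -0.04, 0.09 and -0.17. Over all coding genes 20.1%, 6.05% and 1.68% in the ADR classes had no PBS start peak, and the medians were -0.43, -0.03 and 0.07.

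The summits sat close to the starts, at a median of -36.5 bp in ADR and -67.0 bp in PBS (negative values are upstream), beside -18.0 bp in both lists for all coding genes. The start peak covered the start itself at 28 of 30 genes in ADR and at 31 of 35 in PBS. The ADR and PBS summits of a gene lay a median of 31.5 bp apart (all coding genes 29.0 bp) and were within 100 bp of each other at 29 of 30 genes. *Psmc3* was the exception, at 150 bp. A coding start of another gene lay within 1 kb at 11 of the 45 genes. Of these, 8 had an ADR and 9 a PBS start peak, with median folds of 8.59 in ADR and 6.31 in PBS, and of the other 34 genes 22 had an ADR and 26 a PBS start peak, with medians of 7.11 in ADR and 6.19 in PBS.

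The promoters of the proteasome genes held ETS letters more often than those of coding genes in general. Promoters were taken as 250 bases before to 50 after the start, and motifs as exact matches on either strand to CCAAT (NF-Y), CCGGAAG (ETS), GGGCGG (SP/KLF), TGACNNNGC (ARE), TGACTCA or its reverse complement TGAGTCA (AP-1), TAAACA (forkhead), CATTCC (TEAD), TTAATTA (LMX1B) and GNGTGGGNG (WT1/EGR). An AP-1 match followed by GC is also an ARE match. ETS matches were found in 15 of 45 promoters (33.3%, 21.4 to 47.9%), beside 10.8% of all. NF-Y matches were found in 42.2% (all 39.0%), SP/KLF in 57.8% (all 43.0%) and ARE in 13.3% (all 12.5%). Over genes with a start peak in either list, promoters held ETS letters at 34.3% of the proteasome genes and 18.8% of coding genes, and SP/KLF letters at 68.6% and 66.5%. The forkhead letters were found in 8 promoters (17.8%, 9.29 to 31.3%), beside 11.9% of all. Over genes with a start peak in either list they were found in 6 of 35 (17.1%, 8.10 to 32.7%), beside 7.96%. WT1/EGR matches were found in 2 promoters (4.44%, 1.23 to 14.8%), beside 15.0% of all. Over genes with a start peak they were found in 1 of 35 (2.86%, 0.51 to 14.5%), beside 18.7%.

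Within 100 bp of the start peak summits the shares were counted over genes with a start peak. ETS letters were found at 12 of 30 ADR summits (40.0%, 24.6 to 57.7%) and 9 of 35 PBS summits (25.7%, 14.2 to 42.1%), beside 16.6% and 15.9% over all coding genes. NF-Y letters were found at 36.7% of the ADR and 28.6% of the PBS summits, beside 26.99% and 26.5%. WT1/EGR letters were found at 0 of 30 ADR and 0 of 35 PBS summits (upper limits 11.4% and 9.89%), beside 17.1% and 16.4%. Forkhead letters were found at 2 of 30 ADR summits and 1 of 35 PBS summits, which is 6.67% and 2.86%, beside 3.44% and 3.45%. The forkhead share was thus above that of all coding genes in promoters and at ADR summits and below it at PBS summits, on 1 to 8 matches. The GC content of these windows had a median of 62.9% in ADR and 61.2% in PBS, lower than 65.7% and 65.2% over all coding genes, and its part in the motif shares was not tested. Promoters of the 35 genes with a start peak in either list had a median GC content of 58.0%, and those of the other 10 had 46.5%. A match is a run of letters and does not show that a factor was bound.

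**Figure D5:**
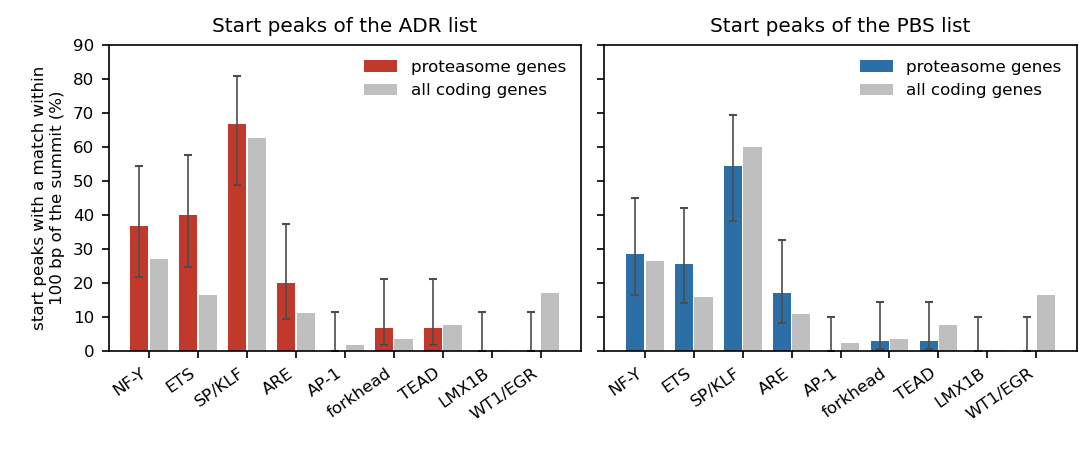
Share of start peaks with a motif match within 100 bp of the summit (vertical axis, %) in the ADR list (left) and the PBS list (right), for the proteasome genes (colored, with 95% Wilson intervals) and all coding genes (gray). ETS letters were found at 40.0% of the ADR and 25.7% of the PBS summits of proteasome genes, and WT1/EGR letters at none.

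Of 30 other genes of the pathway, 26 had an ADR peak and 26 a PBS peak within 10 kb, 6 had more ADR than PBS peaks and 8 had fewer. *Pomp*, the maturation factor of the 20S core, carried a far stronger start peak than any subunit gene, with a fold of 44.8 in ADR and 71.3 in PBS (log2 ratio -0.67). Of 21 with start peaks in both lists, 1 was at least 1.5 times higher in ADR and 4 were lower. The 1 was *Ubqln4*, a shuttle for ubiquitylated proteins, with 18.96 in ADR and 5.28 in PBS (1.84). The 4 were *Pomp*, the ubiquitin gene *Ubb* (4.53 in ADR, 8.75 in PBS), the proteasome-associated thioredoxin gene *Txnl1* (6.39 in ADR, 11.6 in PBS) and the unfoldase gene *Vcp* (5.42 in ADR, 9.62 in PBS). The assembly chaperone gene *Psmg3* and the small 19S subunit gene *Sem1* had start peaks in ADR only, with folds of 6.24 and 5.10. They are 6.67% of the 30 genes (1.85 to 21.3%), beside 2.80% of all coding genes. In the lists as deposited no such ADR-only start was found at the 45 genes.

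The regulators of proteasome transcription were bound as well. *Nfe2l1* had 4 ADR and 6 PBS peaks, and its start peak, of fold 6.31, was called in PBS only. *Nfe2l2* had a start fold of 11.96 in ADR and 13.83 in PBS. The ubiquitin-activating enzyme gene *Uba1* had a start peak in PBS only, of fold 4.46, and the 19S ubiquitin receptor gene *Adrm1* had a start fold of 6.02 in ADR and 8.33 in PBS.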

How the data were processed

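FOXC2 ChIP-seq was available for 3 ADR and 3 PBS samples of FACS-sorted podocytes. The authors' methods give read trimming, alignment to GRCm38 and narrow peak calling in nf-core/chipseq, after which they pooled the replicates. The version of the caller and its cutoff are not given in the sources used here. The 2 deposited peak lists hold positions, the authors' score, their fold enrichment (a ratio over the local control), the −log10 of p and q, and the offset of the summit. The score and the p were not used. A site missing from a list may be weakly bound, since only peaks past the cutoff were deposited.

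Genes came from GENCODE M21, with 1 record kept per symbol, and sequence from GRCm38. Peaks reaching into the 10 kb on either side of a gene's start were assigned to it. Peaks were shared when they overlapped by at least 1 bp. The fold of a start was the highest of its peaks. All 30 related pathway genes matched the annotation. The counting was tested on simulated lists. Python 3.11.15, NumPy 2.4.6, pandas 2.3.3, SciPy 1.17.1 and matplotlib 3.10.9 were used.

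Values were given for genes whose peak numbers differ between the lists, with a start peak in 1 list only, with no peak, and for the 5 highest start folds and the 5 largest rises and falls. Other subunits were described by role. Results at some podocyte marker genes are not reported here. The genes, lists and motifs were chosen with earlier results of these data known. As alternatives, the window was set to 5 or 50 kb, the start to any annotated transcript start, and the start window to 200 bp or 1 kb. The lists were also restricted to a −log10 q of at least 5, a fold of at least 5, or the 20000 peaks with the smallest q, and mean folds, centered ratios and other overlap rules were tried.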

Additional observations from a re-analysis of the deposited data

How the results depend on the processing

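No paired analysis was possible because the replicates of each condition were pooled before deposit, and for the same reason no replicate could be left out. Under the alternatives, 72 values kept their size and 33 moved by more than 1.5 times or past their interval. With the 20000 peaks of smallest q in each list, 19 of 45 genes had an ADR and 27 a PBS peak within 10 kb (24 and 36 peaks summed). Of all 21911 coding genes 7855 and 9183 had one. In these lists 13 genes had an ADR and 19 a PBS start peak, 11 had both, 2 were ADR only and 8 PBS only. Over all coding genes these start counts were 4825, 6051, 4339, 486 and 1712. In those lists 3 genes had more ADR peaks (all coding genes 1530), and 1 start was higher and 0 lower in ADR (all 449 and 533 of 4339). There 20 intervals were called in both lists and 3 in ADR only. With a −log10 q of at least 5, 6 genes had more ADR peaks (all coding genes 2366) and 4 of 45 had ADR-only starts (all 720 of 21911). Of 24 genes with start peaks in both lists 2 were higher in ADR (all 732 of 7217), and 4 intervals were ADR only. With a fold of at least 5, 7 genes had more ADR peaks (all coding genes 2693) and 4 of 45 had ADR-only starts (all 990 of 21911). Of 21 genes with start peaks in both lists 1 was higher in ADR (all 574 of 6444), and 5 intervals were ADR only. There were 3 PBS-only starts (all 1380) and 7 PBS-only intervals. Under both limits the share with an ADR-only start was larger at the 45 genes than over all coding genes. ADR start peaks of any kind were also more frequent at them. Of the genes with an ADR start peak, 4 of 28 were ADR only under the q limit (all 720 of 7937). Under the fold limit 4 of 25 were (all 990 of 7434), and no test of these shares was made. Within 50 kb, 7 genes had more ADR peaks and 20 fewer, and the sums were 222 ADR and 246 PBS peaks. With any transcript start, 1 gene (*Psmb3*) had more ADR peaks (all coding genes 2984) and 2 of 34 starts were lower in ADR (all 1527 of 9662). A start window of 200 bp gave 1 ADR-only start, *Psmc6* (all coding genes 934). Requiring overlap of 50% of both peaks, or summits within 200 bp, gave 5 and 1 ADR-only intervals. The interval counts under the alternatives have no share over all intervals beside them, as none was computed. The stricter lists hold fewer peaks by construction. The median log2 ratio stayed between -0.06 and 0.06. Depth is unknown, so a weak site missing from 1 list cannot be told from an absent one.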
